A study of Mus musculus with 9 samples.

Results

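The 10 genes described here, Atf3, Atf4, Ddit3, Trib3, Chac1, Asns, Hspa5, Xbp1, Herpud1 and Dnajb9, form a core of the integrated stress response and the unfolded protein response. They were chosen by name out of 33539 genes in the deposited table, and all 10 were found there and had enough reads to be tested. The data are RNA-seq libraries of whole colon tissue from 9 wild-type male C57BL/6 mice, with 3 mice in each of 3 groups. Con mice were unirradiated and received PBS according to the sample labels, or saline according to the design text. IR mice received 13 Gy and no CF-2. IR+CF-2 mice received the same 13 Gy and 4 intraperitoneal injections of CF-2 at 7.5 mg/kg, the first 1 h before the exposure and the others 24, 48 and 72 h later. CF-2 is a compound known here only by this code. All colons were taken at 84 h. The design text gives an age of 8 weeks and abdominal irradiation, whereas the treatment protocol gives 6 weeks and total body irradiation. No group that received CF-2 without irradiation was analysed here, and whether the IR mice received the vehicle is not given in the sources used here.

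Both responses slow protein synthesis while a cell repairs a fault. In the integrated stress response, kinases that sense amino acid shortage, unfolded protein in the endoplasmic reticulum (ER), double-stranded RNA or haem shortage phosphorylate the initiation factor eIF2, most translation slows, and the messenger RNA of the transcription factor ATF4 is translated better. ATF4 then switches on genes for amino acid supply and feedback, and with prolonged stress the factor CHOP, the product of Ddit3. In the unfolded protein response, the sensors PERK, IRE1 and ATF6 raise ER chaperones and degradation factors, and IRE1 splices the Xbp1 messenger. In the colon these pathways are known above all from secretory cells, the goblet cells of the epithelium and the plasma cells beneath it. Gene-level read counts measure neither the translation of Atf4 nor the splicing of Xbp1, so the values below are messenger RNA levels only.

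The libraries held between 34434015 and 44304016 counts. Of the 33539 genes, 19174 passed the filter on low counts and were tested. In bulk tissue, fewer cells of a type and less RNA per cell cannot be told apart. Markers of colon epithelium, goblet cells and plasma cells were found in every library, with none of these markers at 0. Replicate 2 of IR+CF-2 stood apart on the second principal component, at 78.0 where the next library lay at 22.9, and replicate 4 of IR lay nearer to Con than the other IR libraries did on the first. The calls of the 10 genes and the counts of each gene list are also given without replicate 2 of IR+CF-2. For IR against Con this removes no IR or Con library. It changes the estimate of the spread, which for each gene all libraries in a fit share. Nothing in the labels names a batch.

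Per unit of transcript length, Hspa5 had the highest mean of the 10 genes in every group and Trib3 the lowest. In Con the deposited FPKM (fragments scaled to exon length and library size) averaged 115 ± 27.1 for Hspa5 (SD, n = 3). Atf4 followed at 73.6 ± 7.05 and Xbp1 at 68.2 ± 12.9, 2 neighbours whose ranges over libraries overlapped. Herpud1 stood at 48.8 ± 9.46 FPKM. Dnajb9 at 18.6 ± 3.47, Atf3 at 16.9 ± 6.79 and Asns at 12.7 ± 1.79 formed a run in which each overlapped its neighbour. Ddit3 stood below them at 9.35 ± 0.68 FPKM. Chac1 at 1.71 ± 0.53 and Trib3 at 0.76 ± 0.27 closed the order without overlap. In IR and IR+CF-2 the same genes held the first 4 places in the same order. Asns took the fifth, with FPKM levels of 27.6 ± 6.54 and 36.9 ± 19.8, but its range overlapped that of Atf3, the next gene, in both groups. The ranges of Chac1 and Trib3 overlapped there too. Counts per library ran from 26 to 150 for Trib3 and from 16251 to 53632 for Hspa5, so the 2 ends of the order differ widely in counting precision.

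The sequences upstream of the genes were searched for exact matches to known response elements of the pathway. RefSeq upstream windows of 250 bases (GRCm38.p6) were available for all 10 genes and were searched on both strands. A window without a match does not show that the gene lacks the element, since variant letters and sites outside the window were not sought. The C/EBP-ATF response element, TGATGNAA, through which ATF4 is known to act, was present upstream of Atf3, Chac1, Asns and Herpud1, and in 3.45% of the 32851 windows of all genes. The ER stress response element, CCAAT and CCACG with 9 bases of any kind between them, is a known site of ATF6 with NF-Y and was present upstream of Hspa5 and in 0.113% of windows. Its second form, ATTGG and CCACG with 1 base between them, was present upstream of Herpud1 and in 0.0304% of windows. The stretches that hold these letters are given 5′ to 3′ on the strand of the gene, with the match in capitals; TTGCATCA is the same element read on the other strand. The Asns and Hspa5 stretches lie within a first exon of the GENCODE M21 models and are cut short there. The Chac1 and Herpud1 stretches lie upstream of the models, and the Atf3 stretch lies between exons of its longest model.
Asns, chr6:7693214-7693243, minus strand: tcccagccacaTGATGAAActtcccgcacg
Atf3, chr1:191183416-191183463, minus strand: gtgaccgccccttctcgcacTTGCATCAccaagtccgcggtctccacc
Chac1, chr2:119351029-119351076, plus strand: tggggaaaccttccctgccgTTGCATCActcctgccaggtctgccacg
Herpud1, chr8:94386297-94386407, plus strand: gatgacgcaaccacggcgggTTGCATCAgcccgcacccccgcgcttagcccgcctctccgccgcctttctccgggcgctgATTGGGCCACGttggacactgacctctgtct
Hspa5, chr2:34772020-34772048, plus strand: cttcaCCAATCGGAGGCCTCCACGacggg
The XBP1 element TGACGTGG and the cyclic AMP response element TGACGTCA, which 0.563% and 1.55% of windows held, were not among the letters of any of these 10 windows. Of the 4 genes with a match to the ATF4 element, Asns passed the test in 1 of 3 comparisons, described below. Atf3, Chac1 and Herpud1 passed in none.

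Across the 3 comparisons, the 2 genes past the test were Ddit3, which was lower in irradiated mice given CF-2 than in unirradiated mice, and Asns, which was higher. None of the 10 passed in irradiated against unirradiated mice, where 3.21% of all tested genes did, or in IR+CF-2 against IR, where 0.302% did. Of the 10, 2 passed in IR+CF-2 against Con, beside 19.2% of all tested genes, so the share among these genes was close to that of the transcriptome. The test was edgeR's quasi-likelihood test with Benjamini-Hochberg adjustment over all 19174 genes, with an adjusted p under 0.05 counted as past it. At an unadjusted p under 0.05 the genes past it were 2, 0 and 4 of 10 in the same order, beside 23.9%, 14.6% and 35.6% of all genes. DESeq2 called 1, 0 and 2, beside 6.29%, 2.73% and 15% of the 33539 genes. Here and below the DESeq2 shares include 14365 genes under the edgeR filter, 1042 of all genes having no reads. Genes without reads cannot be called, so these shares understate the background and are not comparable with those of edgeR. Levels below are counts scaled to a common library size by TMM (CPM), listed in the order of the library numbers, which are 2, 3 and 4 for Con and IR and 1, 2 and 3 for IR+CF-2.

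**Figure D1:**
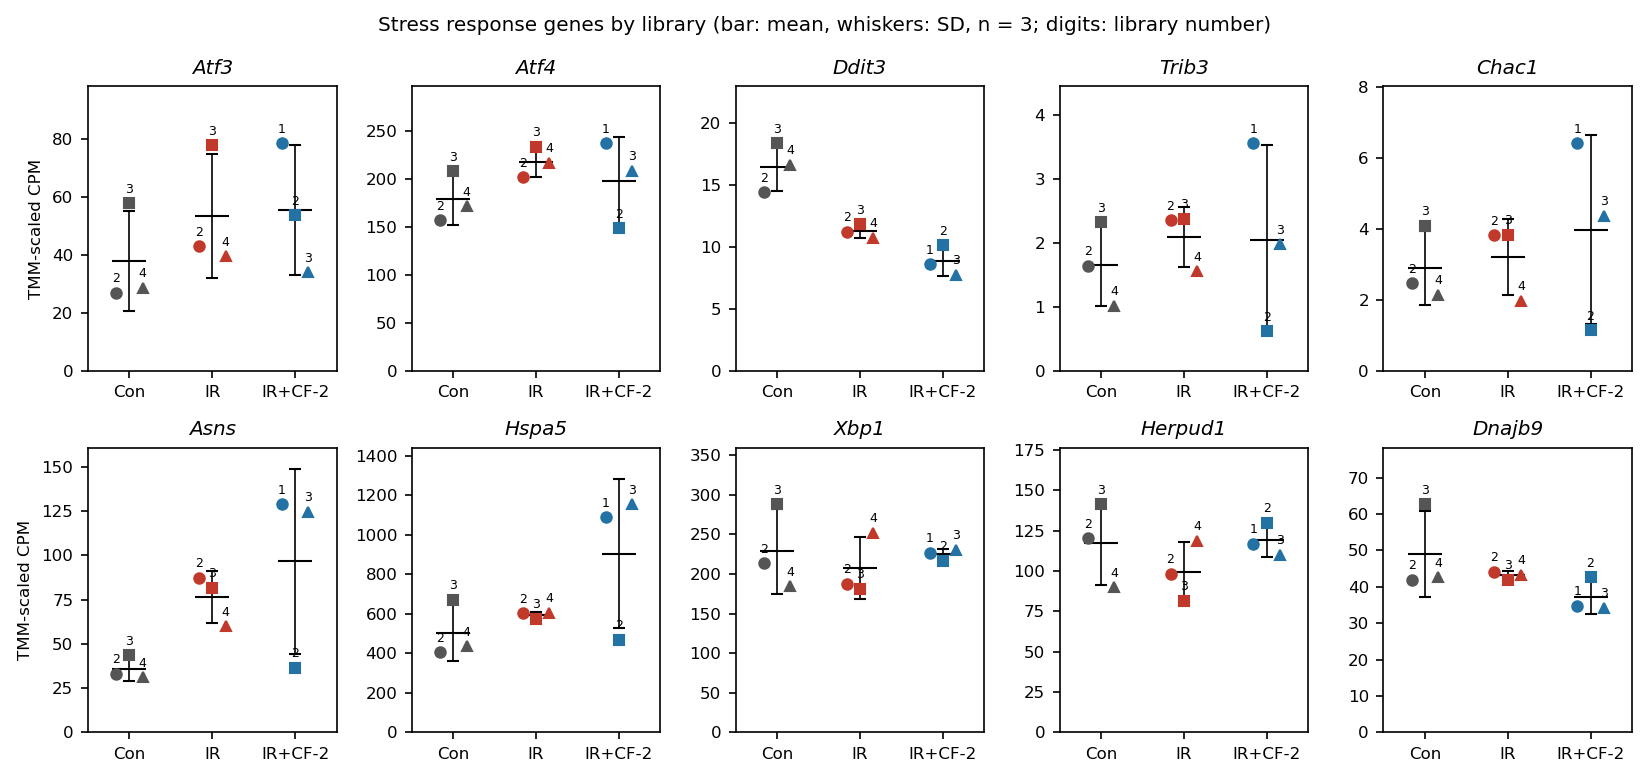
TMM-scaled CPM (vertical axes, linear and starting at 0) of the 10 genes in each library of Con, IR and IR+CF-2, with digits for the library number, a bar for the mean and whiskers for the SD (n = 3). Ddit3 lies in 3 separate tiers, and in Trib3, Chac1, Asns and Hspa5 replicate 2 of IR+CF-2 lies well below replicates 1 and 3.

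Ddit3 (chr10:127290774-127296288, plus strand, GRCm38), which encodes CHOP, the factor tied to death of cells under prolonged ER stress, was the one gene whose groups were fully separated in all 3 comparisons. Its level was 14.4, 18.4 and 16.6 CPM in Con, 11.2, 11.8 and 10.8 in IR, and 8.59, 10.1 and 7.77 in IR+CF-2. Every IR library lay below every Con library, and every IR+CF-2 library lay below every IR library. Against Con, Ddit3 fell by 0.90 ± 0.16 on the log2 scale in IR+CF-2 (SE, adjusted p = 0.0118), to 0.536 times the Con level. IR against Con gave a log2 difference of -0.55 ± 0.16 (adjusted p = 0.0843) and IR+CF-2 against IR one of -0.35 ± 0.16 (adjusted p = 0.356), neither past the test. Groups free of overlap in either direction were common, at 36.3%, 17.6% and 39.8% of all tested genes in IR against Con, IR+CF-2 against IR, and IR+CF-2 against Con, where they were 2, 1 and 1 of these 10. The call against Con was lost without replicate 4 of Con (-0.90, adjusted p = 0.0504), and also with a term for Hoxa13, a gene of the distal gut, a setting chosen after seeing the data (-0.73, adjusted p = 0.179). For IR against Con, the gene passed under DESeq2 (-0.58, adjusted p = 0.0156), in a fit of these 6 libraries alone (-0.57, adjusted p = 0.044) and without replicate 2 of IR+CF-2 (-0.55, adjusted p = 0.0302). Ddit3 shares 105 exonic bases with a second Ddit3 model on its own strand, 68 with Mars1 and 13 with Gm4189 on the opposite strand, and whether reads were counted by strand is not given in the sources used here. Mars1, the methionyl-tRNA synthetase, moved the other way, with a log2 difference of 1.18 ± 0.28 in IR+CF-2 against Con (adjusted p = 0.0232).

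Atf4 (chr15:80255184-80257541), the central transcription factor of the integrated stress response, varied little. Its level was 157, 208 and 171 CPM in Con, 201, 233 and 217 in IR, and 237, 149 and 208 in IR+CF-2. The groups overlapped in every comparison, and the lowest and highest of the 9 libraries were both IR+CF-2 mice. The log2 difference was 0.28 ± 0.18 in IR against Con (adjusted p = 0.374), -0.13 ± 0.18 in IR+CF-2 against IR (adjusted p = 0.785) and 0.15 ± 0.18 in IR+CF-2 against Con (adjusted p = 0.607). Its 95% intervals reached from -0.08 to 0.64, from -0.49 to 0.23 and from -0.21 to 0.51. Here and below these are normal approximations from the SE, and they are narrower than edgeR's F-test implies. For Ddit3 in IR+CF-2 against IR, such an interval ran from -0.67 to -0.04, where edgeR's unadjusted p was 0.0554.

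Atf3 (chr1:191170296-191218039), an early stress factor of the same family, spread more within groups than between them. Its level was 27.03, 57.8 and 28.7 CPM in Con, 42.9, 77.9 and 39.5 in IR, and 78.6, 53.7 and 34.0 in IR+CF-2. Replicate 3 was the highest library of both Con and IR, at 2.07 times the mean of the other Con libraries, and all groups overlapped. The log2 differences were 0.50 ± 0.40, 0.05 ± 0.40 and 0.55 ± 0.40 in IR against Con, IR+CF-2 against IR and IR+CF-2 against Con, with adjusted p-values of 0.478, 0.965 and 0.366.

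Asns (chr6:7675169-7693254), asparagine synthetase and a classical ATF4 target, gave the largest differences from Con of the 10 genes. Its level was 33.1, 43.6 and 31.0 CPM in Con, 87.4, 81.9 and 60.1 in IR, and 129, 36.5 and 125 in IR+CF-2. All IR libraries lay above all Con libraries, whereas replicate 2 of IR+CF-2 lay within the Con range and the other 2 IR+CF-2 libraries lay above all others. Asns was higher in IR+CF-2 than in Con by 1.43 ± 0.41 on the log2 scale (adjusted p = 0.0418), a 2.69-fold difference. IR against Con gave 1.09 ± 0.41 (2.13-fold, adjusted p = 0.151) and IR+CF-2 against IR 0.34 ± 0.40 (adjusted p = 0.749), with a 95% interval from -0.45 to 1.13.

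The Asns call was close to the threshold and was lost under several settings. With the Hoxa13 term it was 1.61 (adjusted p = 0.238), with no filter on low counts 1.49 (adjusted p = 0.112), and in a fit of the IR+CF-2 and Con libraries alone 1.49 (adjusted p = 0.0822). It was also lost without replicate 2, 3 or 4 of Con (adjusted p = 0.121, 0.0867 and 0.138), without replicate 2 or 3 of IR (0.0609 and 0.0687) and without replicate 1 or 3 of IR+CF-2 (0.133 and 0.122). It held without replicate 4 of IR (0.0484). Without replicate 2 of IR+CF-2 the difference was 1.82 ± 0.19 (adjusted p = 0.000695), and IR against Con then passed as well, at 1.09 ± 0.17 (adjusted p = 0.00689). That library is in neither IR nor Con, so the IR against Con difference stayed at 1.09 while its SE fell from 0.41 to 0.17. A fit of the Con and IR libraries alone also called Asns in IR against Con (1.08, adjusted p = 0.0213).

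Trib3 (chr2:152337422-152344032), a pseudokinase that acts as a feedback inhibitor of ATF4, was the rarest transcript. Its level was 1.64, 2.33 and 1.02 CPM in Con, 2.36, 2.38 and 1.56 in IR, and 3.57, 0.623 and 1.98 in IR+CF-2. The highest and the lowest library were both in IR+CF-2. Its log2 differences of 0.33 ± 0.57, -0.03 ± 0.56 and 0.30 ± 0.56 in IR against Con, IR+CF-2 against IR and IR+CF-2 against Con had adjusted p-values of 0.745, 0.985 and 0.743.

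Chac1 (chr2:119351229-119354381), an enzyme that breaks down glutathione and is induced by ATF4 and CHOP, showed much the same arrangement. Its level was 2.47, 4.09 and 2.15 CPM in Con, 3.82, 3.84 and 1.97 in IR, and 6.42, 1.15 and 4.37 in IR+CF-2. Again the highest and lowest libraries were both IR+CF-2 mice. The log2 differences were 0.15 ± 0.57, 0.31 ± 0.56 and 0.46 ± 0.56 in the same order, with adjusted p-values of 0.896, 0.841 and 0.608. For Trib3 and Chac1 the 95% intervals spanned more than 2 log2 units in each comparison.

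Hspa5 (chr2:34771970-34777547), the ER chaperone BiP and a marker of the unfolded protein response, had the second largest difference between IR+CF-2 and Con in the upward direction. Its level was 406, 673 and 437 CPM in Con, 603, 575 and 607 in IR, and 1090.2, 469.9 and 1154 in IR+CF-2. Replicates 1 and 3 of IR+CF-2 lay above all other libraries and replicate 2 lay within the Con range, while the IR libraries lay close together within that range. The log2 difference from Con was 0.84 ± 0.33 in IR+CF-2 (adjusted p = 0.101) and 0.24 ± 0.32 in IR (adjusted p = 0.685). IR+CF-2 against IR gave 0.60 ± 0.32 (adjusted p = 0.43), with a 95% interval from -0.03 to 1.24. Without replicate 2 of IR+CF-2, Hspa5 passed against Con at 1.15 ± 0.20 (adjusted p = 0.00403) and missed against IR at 0.92 ± 0.20 (adjusted p = 0.0528).

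Xbp1 (chr11:5520659-5525893), the factor that IRE1 activates by splicing, differed little between groups. Its level was 213, 288 and 184 CPM in Con, 188, 182 and 252 in IR, and 227, 217 and 231 in IR+CF-2. All IR+CF-2 libraries lay inside the Con range. The log2 differences of -0.14 ± 0.19, 0.12 ± 0.19 and -0.02 ± 0.19 in IR against Con, IR+CF-2 against IR and IR+CF-2 against Con had adjusted p-values of 0.675, 0.817 and 0.945. Plasma cells depend on Xbp1, and 3 of 8 plasma cell markers were lower in IR than in Con, beside 0.845% of all genes. By sign alone 6 of the 8 were lower and 2, Sdc1 and Prdm1, higher. Their summed level, in which Igha had the largest part, was 668 to 839 CPM in IR. In Con it was 1102 to 1762 and in IR+CF-2 1141 to 1431. The 8 goblet cell markers summed to 9265 to 17578 CPM in IR and 10950.1 to 14326 in Con. Of these, 0 passed edgeR's test and 1 had an unadjusted p under 0.05, beside 23.9% of all genes. The part of these cells in the Xbp1 level was not tested.

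Herpud1 (chr8:94386438-94395377), an ER membrane protein that organises the degradation of misfolded proteins, was likewise flat. Its level was 120.4, 141 and 89.9 CPM in Con, 98.5, 81.6 and 119 in IR, and 117, 129.9 and 110.2 in IR+CF-2. The groups overlapped in every comparison. The log2 differences were -0.23 ± 0.19, 0.26 ± 0.19 and 0.02 ± 0.19 in the same order, with adjusted p-values of 0.476, 0.579 and 0.95.

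Dnajb9 (chr12:44205559-44210326), an ER co-chaperone of BiP and a target of spliced XBP1, had a level of 41.9, 62.6 and 42.6 CPM in Con, 44.1, 41.9 and 43.3 in IR, and 34.8, 42.5 and 34.3 in IR+CF-2. Replicates 1 and 3 of IR+CF-2 were the lowest of the 9 libraries, and replicate 2 overlapped the other groups. The log2 difference between IR+CF-2 and Con was -0.40 ± 0.17 (adjusted p = 0.126), with IR against Con at -0.19 ± 0.17 (adjusted p = 0.525) and IR+CF-2 against IR at -0.21 ± 0.17 (adjusted p = 0.609). A processed pseudogene, Gm6568, matches its transcript at 93.3% over 697 bases.

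**Figure D2:**
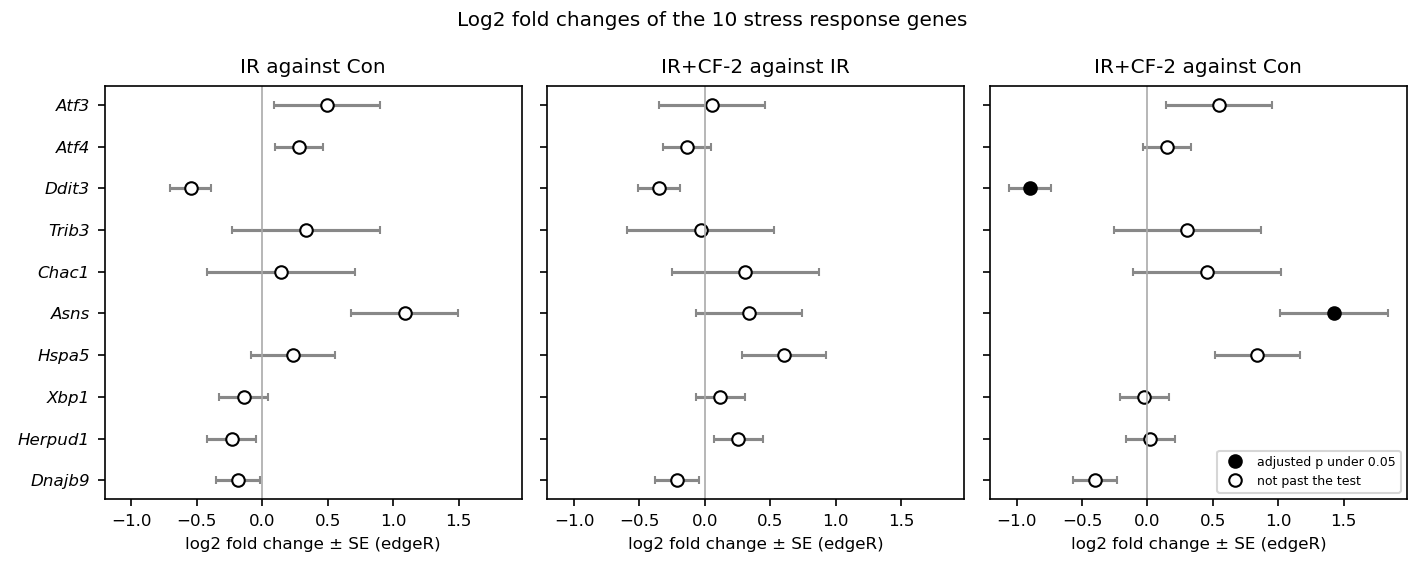
Log2 fold changes (horizontal axes) of the 10 genes in IR against Con, IR+CF-2 against IR and IR+CF-2 against Con, as points with whiskers of 1 SE from edgeR (3 libraries a group). Filled points, adjusted p under 0.05, are Ddit3 at -0.90 and Asns at 1.43 in the last panel, and all others are open.

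Within groups, single libraries led for many of the 10 genes in Con and IR+CF-2. Replicate 3 of Con was the highest Con library for all 10, where it was highest for 40.7% of all tested genes. Under total count scaling it was highest for all 10 and for 24.7% of all genes. Its smooth muscle markers summed to 2320 CPM, against 5698 and 5152 in replicates 2 and 4, and its fibroblast markers to 639 against 1319 and 912. Of 9 epithelial and 8 goblet cell markers, 6 and 7 were the highest there. The part of these differences in the stress gene levels was not tested. Replicate 2 of IR+CF-2 was the lowest treated library for Atf4, Trib3, Chac1, Asns, Hspa5 and Xbp1 and the highest for Ddit3, Herpud1 and Dnajb9; over all genes it was lowest for 36.7% and highest for 48.7%. In IR, replicates 2, 3 and 4 were highest for 2, 5 and 3 of the 10 and lowest for 1, 4 and 5. The mean CPM of IR+CF-2 replicates 1 and 3 was 4.69 times the replicate 2 level for Chac1, 4.45 times for Trib3, 3.47 times for Asns and 2.39 times for Hspa5, against 1.06 times for Xbp1 and 0.807 times for Ddit3. For Asns, replicate 2 stood at 1.02 times the mean of Con. In the same library all 7 smooth muscle, all 7 macrophage and 6 of 7 fibroblast markers were the highest of the treated mice. Of 9 epithelial markers, 6 were the lowest there and 2 the highest. Of 8 plasma cell markers 6 were the highest and 0 the lowest, and of 8 goblet cell markers 5 were the highest and 3 the lowest. The epithelial markers summed to 11096 CPM there, against 12165 to 15281 over the Con and IR libraries, and the part of this difference in the stress gene levels was not tested.

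**Figure D3:**
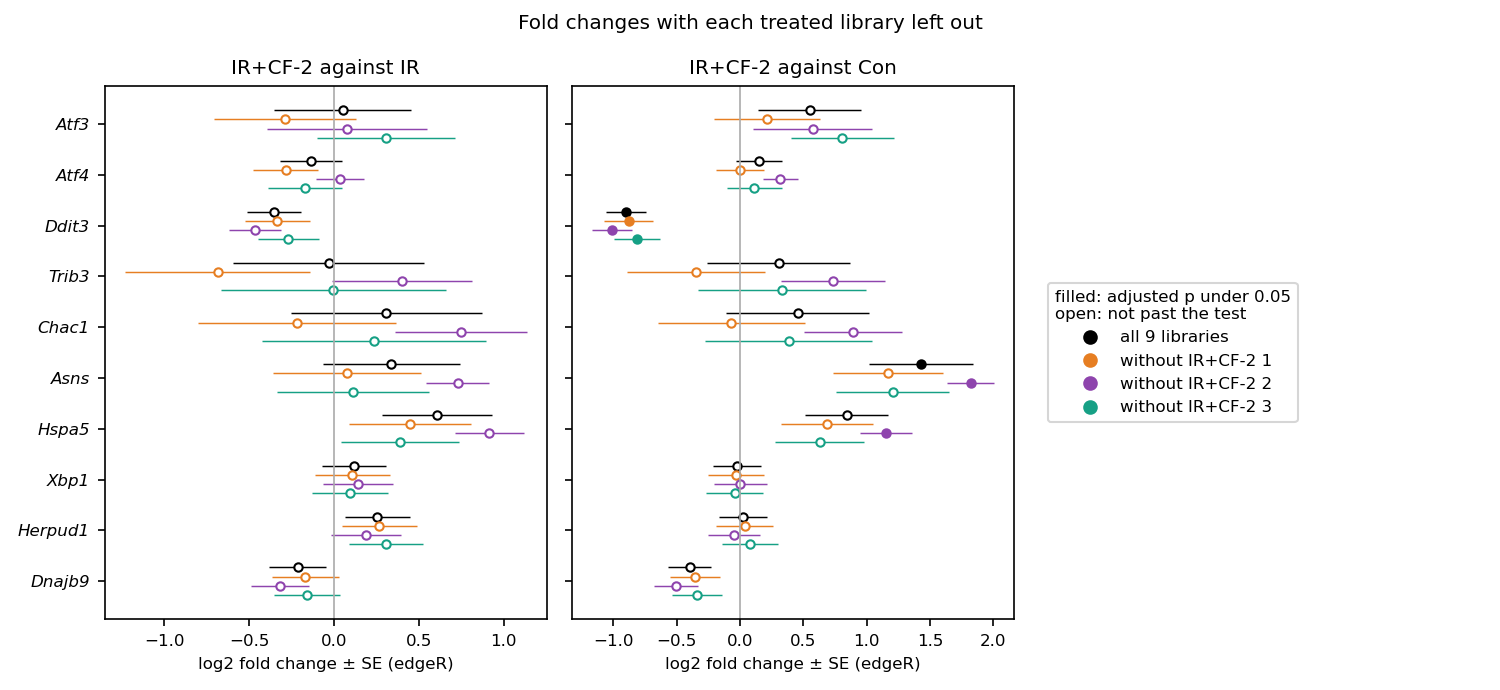
Log2 fold changes ± SE from edgeR (horizontal axes) of the 10 genes in IR+CF-2 against IR and against Con, with all 9 libraries and with each treated library left out in turn. Without replicate 2 the Asns difference from Con goes from 1.43 to 1.82 and Hspa5 passes the test at 1.15, while Ddit3 keeps its call against Con in all 4 fits shown.

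Without that library, 2 of the 10 genes passed in IR against Con (Asns and Ddit3) beside 15.8% of all genes, 0 in IR+CF-2 against IR beside 3.05%, and 3 in IR+CF-2 against Con (Hspa5, Asns and Ddit3) beside 34.3%. Leaving out replicate 3 of Con and replicate 4 of IR as well gave 3, 2 and 6 genes, beside 24.9%, 4.58% and 39.5% of all genes. That setting was chosen after seeing the data. It removes libraries that stood apart for these genes, so its calls cannot serve as separate support. The 2 in IR+CF-2 against IR were then Hspa5, at 0.93 ± 0.11 (adjusted p = 0.00967), and Asns, at 0.58 ± 0.08 (adjusted p = 0.0179), each from 2 libraries a group.

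The wider pathways were read from 6 lists holding 130 further genes, of which 129 were tested. Irradiation alone gave 6 of the 129 past the test against Con, all higher, or 4.65% beside 3.21% of all genes. For IR+CF-2 against IR, 0 passed by edgeR, and 8 had an unadjusted p under 0.05, beside 14.6% of all genes. DESeq2 called 2, Gdf15 and Creb3l2, beside 2.73% of the 33539 genes. Of the 129, for IR+CF-2 against Con, 35 were higher and 5 lower, together 31.0% beside 19.2% of all genes, of which 11.2% were higher and 7.95% lower. Both comparisons against Con share the Con libraries. These counts leaned on single libraries, as did the counts over all genes. For IR against Con, 0 of the 129 passed without any 1 of the replicates 2, 3 or 4 of Con or 2 or 3 of IR, 13 without replicate 4 of IR, and 4, 48 and 1 without replicates 1, 2 and 3 of IR+CF-2. Of all genes, 0.00509%, 0.0711% and 0.0102% passed there without replicates 2, 3 and 4 of Con. The shares were 0.00507%, 0.00506% and 6.03% without those of IR, and 1.99%, 15.8% and 0.437% without those of IR+CF-2. The counts for IR+CF-2 against Con were 8, 11 and 6 without replicates 2, 3 and 4 of Con, 31, 22 and 40 without those of IR, and 9, 80 and 11 without replicates 1, 2 and 3 of IR+CF-2. In the same order the shares of all genes were 5.34%, 5.34% and 3.48%, then 14.8%, 12.4% and 20.1%, then 4.69%, 34.3% and 7.12%. The counts for IR+CF-2 against IR were 7 without replicate 2 of IR+CF-2, beside 3.05% of all genes, and 0 without any other library, beside 0.0253% to 0.294%. With the Hoxa13 term 1, 0 and 0 of the 129 passed in IR against Con, IR+CF-2 against IR and IR+CF-2 against Con. That term left 0.256%, 0% and 0.0313% of all genes.

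Markers of some other cell types moved in the comparison of IR+CF-2 with Con as well. All 6 neutrophil markers, 6 of 7 macrophage markers and 2 of 7 fibroblast markers were higher, beside 11.2% of all genes. Of 9 epithelial markers Krt18 was higher and Epcam lower, or 22.2%, close to the 19.2% of all genes called. Of 8 goblet cell markers 1 was higher, and 0 of 8 plasma cell and 0 of 7 smooth muscle markers passed. Of 8 p53 target genes, 7 were higher. The summed level of the macrophage markers ran from 146 to 294 CPM in IR+CF-2 and from 86.6 to 119 in Con, and that of the neutrophil markers from 11.5 to 36.3 and from 0.807 to 1.64. The fibroblast markers summed to between 1556 and 3173 CPM against 639 to 1319 in Con, and the epithelial markers to 11096 to 13759 against 13957 to 15281. Of the neutrophil markers, 1 was at 0 in all Con libraries. The part of these cells in the list counts below was not tested.

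**Figure D4:**
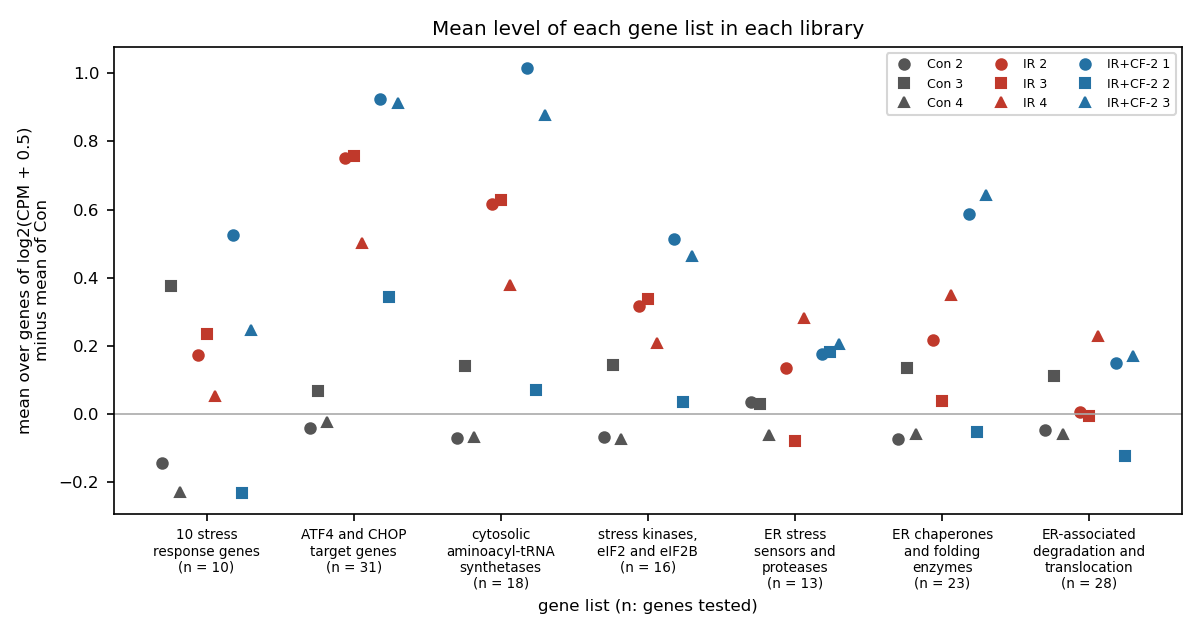
Mean over the genes of each list of log2(CPM + 0.5) minus the mean of Con (vertical axis), with 1 point per library and the number of genes under each list. For the synthetases, replicates 1 and 3 of IR+CF-2 lie highest, at 1.02 and 0.88, and replicate 2 at 0.07 lies within the range of Con.

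Among 31 tested targets of ATF4 and CHOP, 5 were higher in IR than in Con and 0 lower, with a median log2 difference of 0.67 beside 0.01 over all genes. The 5 are 16.1% of the list, beside 3.21% of all genes. The counts became 17 higher and 0 lower without replicate 2 of IR+CF-2, beside 15.8% of all genes, and without replicate 4 of IR 7 were higher and 2 lower beside 6.03%. Without replicate 3 of Con, 0 were higher and 0 lower, beside 0.0711%. Gdf15, a stress hormone that lowers food intake, was at 1.40, 0.997 and 1.08 CPM in Con, 14.2, 18.3 and 7.76 in IR, and 21.5, 38.5 and 23.5 in IR+CF-2. The groups were separate in every comparison, and Gdf15 was higher in IR than in Con by 3.53 ± 0.38 on the log2 scale (adjusted p = 0.0222). Tnfrsf10b, a death receptor, was higher by 1.51 ± 0.24 (adjusted p = 0.0296) and Sesn2, a sestrin that restrains growth signalling, by 1.15 ± 0.20 (adjusted p = 0.0312). These 3 genes are known targets of p53 as well, and 6 of 8 p53 target genes outside the list were also higher in IR. The remaining 2, singled out after their values were seen, encode the first enzymes of serine synthesis: Phgdh, higher by 2.44 ± 0.48 (adjusted p = 0.0401), and Psat1, higher by 2.40 ± 0.53 (adjusted p = 0.0478).

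The mice given CF-2 had 14 of these 31 targets higher than in Con and 2 lower, or 51.6% beside 19.2%, with a median log2 difference of 0.79 beside 0.02 over all genes. Leaving out replicate 2 of IR+CF-2 gave 18 higher and 5 lower, beside 34.3% of all genes. Leaving out replicate 3 of Con gave 7 higher and 0 lower, beside 5.34%. Gdf15 was higher by 4.58 ± 0.39 (adjusted p = 0.00256), Tnfrsf10b by 1.64 ± 0.24 (adjusted p = 0.0083) and Slc7a11, the cystine transporter, by 3.53 ± 0.59 (adjusted p = 0.0102). Psat1, also chosen after its values were seen, was at 13.1, 10.8 and 12.2 CPM in Con, 78.9, 72.9 and 39.5 in IR, and 135, 27.3 and 126 in IR+CF-2. As for Asns, replicate 2 was the lowest treated library, although here it stayed above Con. The 2 lower genes were Nupr1, a stress-induced chromatin protein, at -1.88 ± 0.39 (adjusted p = 0.0169), and Cth, the cystathionine enzyme that makes cysteine, at -1.43 ± 0.32 (adjusted p = 0.02). Against IR, the smallest p-values of the list belonged to Vldlr, a lipoprotein receptor, at -0.62 ± 0.17, Gdf15 at 1.05 ± 0.33 and Nupr1 at -1.05 ± 0.38, with adjusted p-values of 0.158, 0.204 and 0.26.

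The cytosolic aminoacyl-tRNA synthetases, which charge tRNAs with amino acids and of which several are ATF4 targets, gave 9 of 18 higher in IR+CF-2 than in Con and 0 lower, beside 11.2% of all genes higher. With replicate 2 of IR+CF-2 left out, 17 of 18 were higher, beside 34.3% of all genes called. With replicate 3 of Con left out instead, 1 of 18 was higher, beside 5.34%. Eprs, the glutamyl-prolyl enzyme, was at 93.3, 97.3 and 94.9 CPM in Con, 155, 145 and 132 in IR, and 211, 131 and 198 in IR+CF-2. It lay above Con in all treated libraries and was higher by 0.92 ± 0.17 (adjusted p = 0.0134). Iars, the isoleucyl enzyme, was higher by 0.99 ± 0.22, and Mars1 by the 1.18 given above. Replicate 2 was the lowest treated library for all 18 synthetases. Of the 18, edgeR called 0 in IR against Con, beside 3.21% of all genes. There 8 had an unadjusted p under 0.05, beside 23.9%, and DESeq2 called 2, beside 6.29% of the 33539 genes. In the fit without replicate 2 of IR+CF-2, 12 passed there, beside 15.8% of all genes. The smallest p-values in IR against Con with all libraries belonged to Eprs at 0.60 ± 0.17, Mars1 at 0.95 ± 0.27 and Vars, the valyl enzyme, at 0.88 ± 0.27 (adjusted p = 0.0805, 0.0828 and 0.0976). Between IR+CF-2 and IR, 0 passed by edgeR or DESeq2, and 0 had an unadjusted p under 0.05, beside 14.6% of all genes. The smallest p-values there were those of Yars, Eprs and Kars, the first and last being the tyrosyl and lysyl enzymes, at 0.43 ± 0.22, 0.32 ± 0.17 and 0.30 ± 0.21 (adjusted p = 0.416, 0.429 and 0.541). Eprs passed there in the fit without replicate 2 of IR+CF-2.

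The kinases, eIF2 subunits and the exchange factor eIF2B, the machinery that starts the response, gave 6 of 16 higher in IR+CF-2 than in Con and 0 lower, beside 11.2% of all genes higher. In the fit without replicate 2 of IR+CF-2, 10 were higher and 1 lower, beside 34.3% of all genes. In the fit without replicate 3 of Con, 2 were higher and 0 lower, beside 5.34%. Eif2b3, a subunit of the catalytic part of eIF2B, was higher by 1.37 ± 0.23 (adjusted p = 0.0102), Eif2s1, the eIF2 subunit that the kinases phosphorylate, by 1.12 ± 0.22 (adjusted p = 0.015) and Eif2s3x, another eIF2 subunit, by 0.87 ± 0.20 (adjusted p = 0.0217). None of the 4 eIF2 kinases was among the 6. Between IR and Con, edgeR called 0 of 16, beside 3.21% of all genes. At an unadjusted p under 0.05 there were 9, beside 23.9%, and DESeq2 called 5, beside 6.29% of the 33539 genes. Without replicate 2 of IR+CF-2, 8 were higher and 1 lower, beside 15.8% of all genes. With all libraries, Eif2ak3, which encodes the kinase PERK, had a log2 difference of 0.65 ± 0.17 in IR against Con (adjusted p = 0.0658). Eif2b3 had 0.94 ± 0.23 there (adjusted p = 0.0565) and Eif2s1 0.86 ± 0.22 (adjusted p = 0.0635). Between IR+CF-2 and IR, 0 passed by edgeR or DESeq2 and 0 had an unadjusted p under 0.05, beside 14.6% of all genes. Eif2b3 had 0.43 ± 0.22 there (adjusted p = 0.415), Nck1, an adaptor protein, -0.26 ± 0.15 (adjusted p = 0.451) and Eif2b1, an eIF2B subunit that passed without replicate 2 of IR+CF-2, 0.30 ± 0.18 (adjusted p = 0.486).

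On the side of the ER, the counts were smaller. Of 13 sensors and proteases, Mbtps2, the protease that releases ATF6, was the 1 gene past the test in both comparisons with Con, higher by 0.65 ± 0.13 in IR (adjusted p = 0.0395) and by 0.72 ± 0.13 in IR+CF-2 (adjusted p = 0.0117). This is 7.69% of the list, beside 3.21% and 19.2% of all genes. Without replicate 2 of IR+CF-2 the counts were 1 and 2, beside 15.8% and 34.3% of all genes. Without replicate 3 of Con they were 0 and 1, beside 0.0711% and 5.34%. Over 19 alternatives the Mbtps2 call was lost in 12 for IR and in 2 for IR+CF-2. Between IR+CF-2 and IR the smallest p-values belonged to the ER-bound factors Creb3l2, Creb3l4 and Creb3, at 0.91 ± 0.26, -0.49 ± 0.28 and -0.16 ± 0.18 (adjusted p = 0.17, 0.469 and 0.728). Of 23 chaperones and folding enzymes, 0 passed in IR against Con by edgeR or DESeq2. At an unadjusted p under 0.05 there was 1, beside 23.9% of all genes. Dnajc10, a disulfide reductase, had 0.85 ± 0.32 there (adjusted p = 0.147), Uggt1, the glycoprotein folding sensor, 0.35 ± 0.17 (adjusted p = 0.243) and Hspa13 0.31 ± 0.16 (adjusted p = 0.268). Against Con, 4 were higher in IR+CF-2: Dnajc10 by 1.25 ± 0.32, Hyou1, a large chaperone, by 0.98 ± 0.30, Uggt1 by 0.67 ± 0.17, and Hspa13 by 0.66 ± 0.16. These 4 are 17.4% of the list, close to the 19.2% of all genes. The calls of Dnajc10, Hyou1, Uggt1 and Hspa13 were lost in 9, 14, 8 and 9 of 19 alternatives. Hyou1 was at 93.4, 137 and 93.4 CPM in Con, 159, 149 and 144 in IR, and 249.5, 116 and 276 in IR+CF-2, so that, as in Hspa5, replicate 2 fell within the Con range. It was the lowest treated library for 20 of the 23 chaperones, and without it 14 of 23 passed against Con, 5 against IR and 2 in IR against Con, beside 34.3%, 3.05% and 15.8% of all genes. Without replicate 3 of Con, 0 of 23 passed in each of these comparisons, beside 5.34%, 0.178% and 0.0711%. Pdia4, a disulfide isomerase, had a log2 difference of 0.40 ± 0.19 between IR+CF-2 and IR with all libraries (adjusted p = 0.377), Hspa13 one of 0.35 ± 0.16 (adjusted p = 0.36) and Uggt1 one of 0.32 ± 0.17 (adjusted p = 0.424).

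Of 28 genes of ER-associated degradation and translocation, 1 was higher in IR+CF-2 than in Con and 3 were lower, together 14.3% beside 19.2% of all genes. When replicate 2 of IR+CF-2 was left out, the split turned to 10 higher and 3 lower, beside 34.3% of all genes, and Edem3 no longer passed (-0.53, adjusted p = 0.0697). Ssr1, a translocon subunit, was higher by 0.65 ± 0.17 (adjusted p = 0.0294). The 3 lower genes with all libraries act on misfolded glycoproteins: the mannosidase Edem3 at -0.65 ± 0.19 (adjusted p = 0.048), and the lectins Os9 at -0.51 ± 0.14 (adjusted p = 0.0398) and Erlec1 at -0.79 ± 0.21 (adjusted p = 0.0309). Of 19 alternatives, 9 lost the call of Ssr1, 13 that of Edem3, 11 that of Os9 and 7 that of Erlec1. Erlec1 was at 60.6, 66.1 and 56.6 CPM in Con, 43.8, 40.9 and 64.8 in IR, and 30.3, 44.1 and 31.6 in IR+CF-2. Its treated libraries all lay below Con, and replicate 2 was here the highest of them, as it was for Ddit3 and Dnajb9. Between IR and Con, edgeR called 0 of the 28. At an unadjusted p under 0.05 there were 5, beside 23.9% of all genes, and DESeq2 called 1, beside 6.29% of the 33539 genes. In the fit without replicate 2 of IR+CF-2, 6 were higher and 1 lower there, beside 15.8% of all genes; the lower gene was Derl3. Derl3, a channel component of degradation, was at 2.32, 3.30 and 1.40 CPM in Con, 0.90, 0.784 and 1.03 in IR, and 1.78, 1.87 and 1.70 in IR+CF-2. Every IR library lay below all others, with a log2 difference of -1.37 ± 0.34 from Con (adjusted p = 0.0598) and of 0.98 ± 0.34 between IR+CF-2 and IR (adjusted p = 0.235). Spcs3, a signal peptidase subunit, had 0.44 ± 0.14 in IR against Con (adjusted p = 0.11), and Ssr1 0.59 ± 0.17 (adjusted p = 0.0772). Between IR+CF-2 and IR, Edem3 had -0.58 ± 0.19 (adjusted p = 0.228) and Erlec1 -0.50 ± 0.20 (adjusted p = 0.312).

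**Figure D5:**
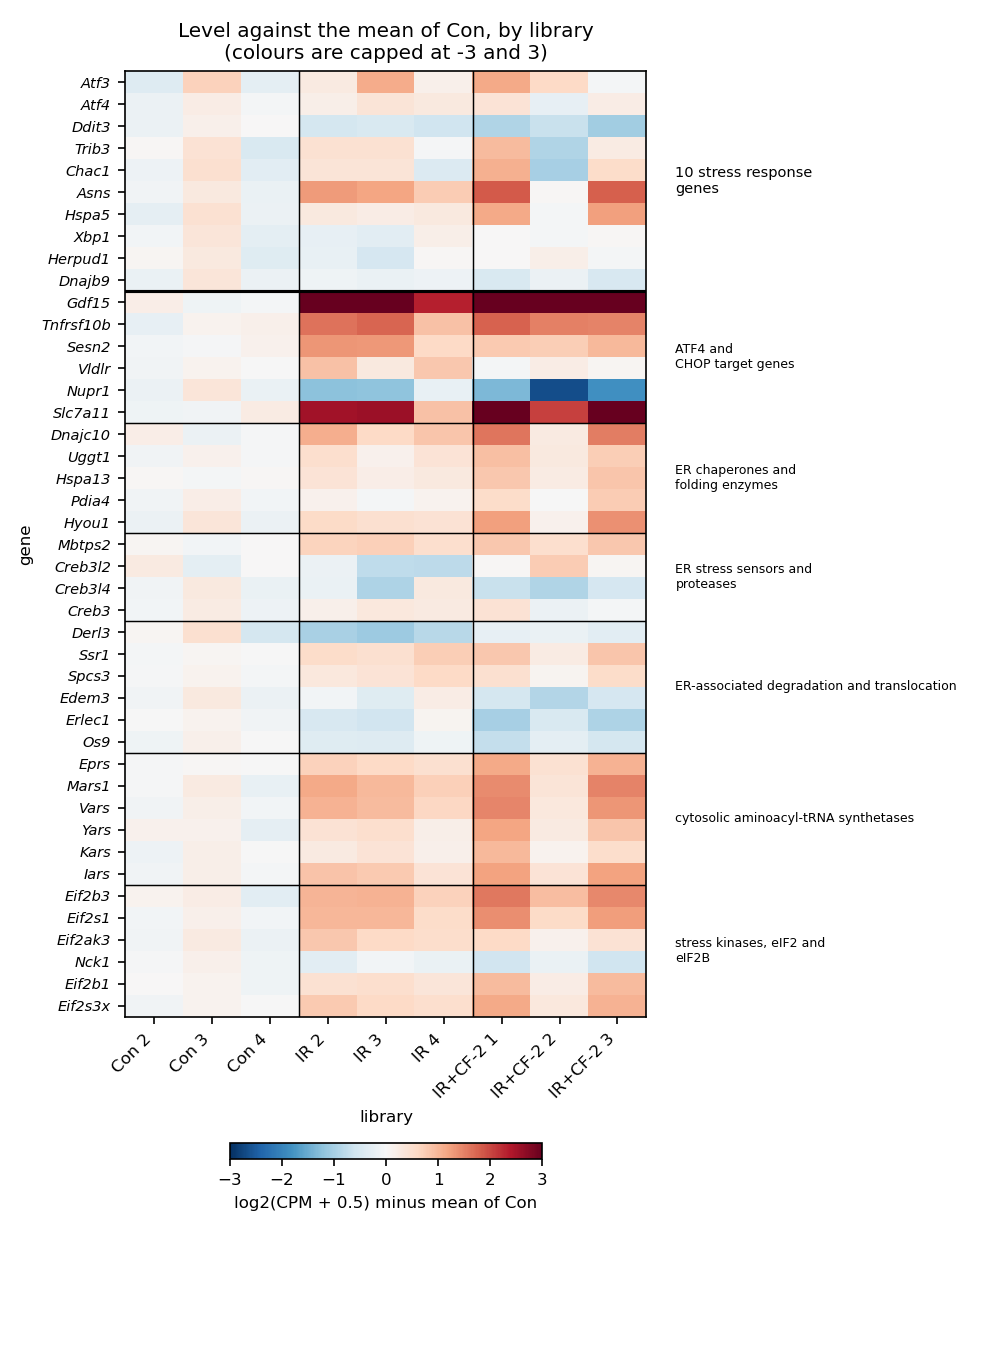
Colours give log2(CPM + 0.5) minus the mean of Con, capped at -3 and 3, for the 10 genes and the named genes of the 6 lists (rows) in the 9 libraries (columns). Synthetase and eIF2B rows are red in IR and in replicates 1 and 3 of IR+CF-2 and paler in replicate 2, while Ddit3, Nupr1 and Erlec1 are blue in all IR+CF-2 libraries.

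Con and IR libraries with the same number deviated together (correlations of 0.354, 0.142 and 0.112 over the tested genes). With the replicate number as a block, IR against Con called 0 of the 10 genes, 8 of the 129 list genes and 944 genes in all, beside 0, 6 and 616 without it. IR+CF-2 shares 2 numbers with each other group, too few to show pairs. In its comparison with Con the block left 462 genes in all, beside 3677 without it, and ended both calls among the 10 genes. It left 0 of the 18 synthetases and 0 of the 23 chaperones past the test. Of the 31 ATF4 and CHOP targets it left 1 higher and 1 lower.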

How the data were processed

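Bulk RNA-seq of colon from 9 mice was read from the deposited table of raw counts per gene, with FPKM beside them, both made by the authors. Per the submitters' processing notes the tools named were HISAT2, featureCounts and DESeq2, and the builds GRCm38 and mm10. Their versions and the strandedness were not stated there. The gene length implied by the counts, library totals and deposited FPKM was the same in all libraries. For the 10 genes it equalled the GENCODE M21 exon length. The FPKM levels were otherwise used only to rank the 10 genes.

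Counts were filtered (filterByExpr), scaled by TMM and fitted with edgeR 4.0.16 in R 4.3.3 (quasi-likelihood, robust, 1 term for group, all 9 libraries), a procedure tested on simulated data. CPM values use TMM library sizes. Depth was 34434015 to 44304016 counts per library, and the common coefficient of variation between replicates was 30.6%. Replicates are separate mice by their labels, and none were duplicates. All 10 genes are named. From each list the genes past the test are named, or, where none or more than 4 passed, the 3 with the smallest p. The genes and lists were chosen with earlier results of these data known. Same-numbered Con and IR libraries correlated at 0.354, 0.142 and 0.112, and no label states a pairing. Con and IR libraries with different numbers reached at most 0.0789, but IR 3 and IR+CF-2 1 reached 0.345. The correlations therefore do not settle whether the numbers mark pairs. The main fit has no term for pairs, and the replicate number entered only as a block in an alternative. IR+CF-2 shares 2 numbers with each group. Alternatives were DESeq2 1.42.0, other scalings, filters, thresholds and sample sets, a replicate block, and each library left out. Promoters came from the RefSeq table of GRCm38.p6, gene models and coordinates from GENCODE M21.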

Additional observations from a re-analysis of the deposited data

How the results depend on the processing

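Counts of genes past the test moved far more than single fold changes. Over 82 named results and their alternatives, 1281 of 1558 values kept direction and side of the threshold, 165 lost a call, 65 gained one and 47 changed sign; no called fold change of the 10 genes changed sign. Counts are given for IR against Con, IR+CF-2 against IR, and IR+CF-2 against Con. All genes called were 616, 58 and 3677, list genes 6, 0 and 40, and the 10 stress genes 0, 0 and 2. DESeq2 gave 2110, 914 and 5024 genes in all, 22, 2 and 51 list genes, and 1, 0 and 2 stress genes. Fits of the compared groups only gave 2307, 6 and 2497 genes, 37, 0 and 19 list genes, and 2, 0 and 1 stress genes. RLE scaling gave 277 genes and 3 list genes in IR against Con, and upper quartile scaling gave 302 and 3. No filter gave 339 genes and 3 list genes in IR against Con, 121 genes in IR+CF-2 against IR, and 1 stress gene in IR+CF-2 against Con. An adjusted p under 0.01 left 1, 5 and 342 genes, 0, 0 and 2 list genes and 0 stress genes. Leaving out each library in turn gave 1 to 3085, 5 to 597 and 685 to 6721 genes, 0 to 48, 0 to 7 and 6 to 80 list genes, and 0 to 2, 0 to 0 and 0 to 3 stress genes.

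After seeing the data, 3 further alternatives were added. Without replicate 3 of Con, 4 of IR and 2 of IR+CF-2 together, 4811, 883 and 7621 genes, 58, 20 and 90 list genes and 3, 2 and 6 stress genes passed. A term for Hoxa13, a gene of the distal gut, left 49, 0 and 6 genes, 1, 0 and 0 list genes, and 0 stress genes, with Asns at 1.61 (adjusted p = 0.238) and Ddit3 at -0.73 (adjusted p = 0.179) in IR+CF-2 against Con. Fitting without robust priors gave counts within 1.5 times those reported. The cause of these differences was not tested.

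The replicate block takes the numbers as shared between groups, which no label states. The correlations of IR+CF-2 with same-numbered libraries ran down to 0.0515. Of 8 libraries, 3 correlated best with their own number. The block gave 944, 6 and 462 genes, 8, 0 and 4 list genes, and 0 stress genes. For IR+CF-2 against Con it gave Asns 0.88 (adjusted p = 0.238), Ddit3 -0.89 (adjusted p = 0.0823), Atf4 -0.024, Trib3 -0.67 and Chac1 -0.47, and in IR+CF-2 against IR Atf3 -0.34, Chac1 -0.64 and Asns -0.23.

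The other changes of sign concerned values that did not pass with all 9 libraries. For IR against Con these were Dnajb9 at 0.024 without the 3 libraries, and Chac1 at -0.024 and Hspa5 at -0.027 with the Hoxa13 term. For IR+CF-2 against IR, Trib3 was 0.0200 under RLE, 0.042 with no filter, 0.021 under DESeq2, 0.051 in the compared groups only, 0.22 without the 3 libraries and 0.38 with the Hoxa13 term. Without the 3 libraries Atf3 was -0.10 and Atf4 0.034, and with the Hoxa13 term Atf4 was 0.29, Dnajb9 0.30, Creb3l4 0.11 and Creb3 0.20. For IR+CF-2 against Con, Herpud1 was -0.0299 under upper quartile scaling, and Xbp1 was 0.016 with no filter, 0.011 in the compared groups only, 0.20 without the 3 libraries and 0.31 with the Hoxa13 term. With 1 library left out, values that crossed 0 ran from -0.0296 to 0.48 for Chac1, from -0.31 to 0.0605 for Xbp1 and from -0.29 to 0.029 for Dnajb9 in IR against Con. The ranges between IR+CF-2 and IR were from -0.29 to 0.50 for Atf3, from -0.28 to 0.036 for Atf4, from -0.69 to 0.40 for Trib3 and from -0.22 to 0.75 for Chac1. Those for IR+CF-2 against Con ran from -0.000626 to 0.32 for Atf4, from -0.35 to 0.73 for Trib3, from -0.069 to 0.89 for Chac1, from -0.16 to 0.18 for Xbp1 and from -0.14 to 0.18 for Herpud1.

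Depth limits Trib3 and Chac1 most, with as few as 26 and 48 counts in a library. With 3 mice a group, and replicates that varied by 30.6%, a p that misses the threshold does not show that a gene did not differ.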
